A study of Mus musculus with 6 samples.

Results

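The genes of the mouse major histocompatibility complex (MHC, in the mouse H2) and their partners in antigen presentation were read from 6 single-colour expression arrays. The set held every non-control probe whose annotated gene name began with H2- or was B2m, Tap1, Tap2, Tapbp, Cd74 or Ciita. It came to 42 gene names on 66 probes (102 spots), of 27745 gene names on 41174 probes (43379 spots). Class I accounted for 24 genes on 38 probes and class II for 10 genes on 17 probes. The 6 accessory genes had 9 probes. H2-Ke2 and H2-Ke6, with 1 probe each, carry the H2 prefix for their place in the region and present no antigen. No measured value entered this choice.

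The series, by its title, concerned the capacity of mouse oocytes to reprogram a somatic nucleus at the end of reproductive life. Its groups were young ooplasts (1 array), climacteric ooplasts (1 array), young blastocysts (2 arrays) and climacteric blastocysts (2 arrays), all of strain B6C3 F1, a cross of C57BL/6 and C3H mice. Ooplasts are egg cells from which the chromosomes have been taken, and a blastocyst is the preimplantation embryo with its first epithelium, the trophectoderm. The labels give age only as Young or Climacteric, name no treatment, allele or transgene, and do not say how the blastocysts were made, how many cells or embryos went into a sample or which animals they came from. The design text calls the replicates biological; no source of the replicates is named, so p-values speak only of the spread among these samples, which may be technical. An F1 animal carries an MHC haplotype from each parent strain, and the effect of haplotype sequence on hybridization was not tested.

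MHC class I molecules pair a heavy chain with beta-2-microglobulin (B2m) and show peptides cut by the proteasome in the cytosol and pumped into the endoplasmic reticulum by the Tap1-Tap2 transporter to cytotoxic T cells and natural killer cells. The classical heavy chains in the mouse are H2-K and H2-D, and the H2-Q, H2-T and H2-M genes encode the class Ib chains, many of them close copies of each other. Class II molecules pair an alpha and a beta chain, are guided to endosomes by the invariant chain Cd74, and are normally made by dendritic cells, macrophages and B cells under the transcriptional coactivator Ciita. Mouse preimplantation embryos are known to carry class I molecules, among them the Qa-2 antigen of the H2-Q region, while trophoblast is known for its lack of class II.

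A level here is the log2 processed signal of a probe minus the 75th percentile of its array, so that 0 is the 75th percentile. That percentile was a signal of 235 and 238 for the ooplasts, and for the blastocysts it ranged from 721 to 1111. Between 42.2% and 57.3% of the spots of an array were well above background, the scanner software's own call. The lowest level so called was -2.30 and -2.20 on the ooplast arrays and ranged from -3.97 to -3.45 on the blastocyst arrays. A dim probe of equal level can therefore be called above background in blastocysts alone. Levels are given in the order young and climacteric ooplasts, then young blastocysts replicates 1 and 2 and climacteric blastocysts replicates 1 and 2. All 8 oocyte marker genes that could be tested were lower in blastocysts than in ooplasts and all 10 blastocyst marker genes were higher, as the labels have it. Of 14 cumulus and granulosa genes 9 were well above background on each ooplast array and 6 to 8 on the blastocyst arrays, with a summed level, in multiples of the 75th percentile, of 532 on the young ooplast array, 95.7 on the climacteric ooplast array and 12.3 to 23.7 on the blastocyst arrays. Between the ooplast arrays that sum followed Inha (8.44 on the young and 2.80 on the climacteric array) and Nr5a1 (6.56 and 1.40). Other genes of the list went either way: Tnfaip6 (1.15 and -1.03) was lower in climacteric ooplasts, Cyp19a1 (6.30 and 6.22) nearly level and Amh (2.12 and 2.54) higher. The sum thus does not stand for the list as a whole. Levels of a gene in bulk RNA cannot tell fewer expressing cells from less RNA per cell.

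Of the 66 member probes 44 were well above background on at least 1 array and 25 on all 6. The other 22 probes, of 18 genes, read between -6.28 and -2.29 (signals of 10.3 to 82.1). For 15 genes no probe was above background anywhere: the class I genes H2-M1, H2-M9, H2-M10.1, H2-M10.3 to H2-M10.6, H2-Q9, H2-T22 and H2-T3, the class II genes H2-DMb2, H2-Ea, H2-Eb2 and H2-Ob, and Tap1. Class I probes were above background more often than class II probes on every array. On the ooplast arrays 17 and 17 of 38 class I probes were above background, and on the blastocyst arrays 21, 22, 24 and 22. For class II the counts were 4 and 7 of 17 on the ooplast arrays and 5, 7, 8 and 7 on the blastocyst arrays. Over all probes the share was 41.9% and 41.7% in ooplasts and ranged from 49.5% to 56.9% in blastocysts. Counts of the 2 stages rest on different lowest levels, as given above.

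In the comparison of blastocysts with ooplasts, fitted over all 6 arrays with age as a covariate, 36 member probes of 23 genes passed the filter, which asked that all arrays of a stage, in 1 stage or both, read the probe well above background. The filter favours probes that are bright in 1 stage and so differ, and the counts describe these probes and not all members. Of the 36, 12 were higher in blastocysts and 9 lower (limma, adjusted p under 0.05 over all probes tested). Among all 20983 probes tested 35.6% were higher and 38.2% lower, so that the member shares of 33.3% and 25.0% lay near or below the background. Class I had 9 probes higher and 3 lower of 22 tested, with a median difference of 0.69 on the log2 scale. Class II had 2 higher and 3 lower of 6 tested, with a median of -1.97. The median of all probes tested was -0.22 and moved between -0.42 and -0.091 with the scaling of the arrays. Measured from that median, class I stood at 0.91 and class II at -1.75, and under 4 other scalings class I lay between 0.82 and 0.94 and class II between -1.81 and -1.11. Without the filter on dim probes the class I median was -0.62, still above the median of all probes, then -1.13. Under the other settings that kept a filter it lay between 0.25 and 0.91. Without the filter the class II median was -1.47 over 17 probes. Measured from the median of all probes it then stood at only -0.34. The class II median was -1.21 without the probes that share the array order of the H2-Ab1 and Tap2 probes described below, -1.16 on slide 1 alone, -1.27 without the second climacteric blastocyst array, and -3.23 over the 2 probes above background on every array.

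The classical class I heavy chains and B2m were well above background on all 6 arrays. H2-K1 (17: 33606564 to 33606623 in build mm8 for its replicated probe) was read by 4 probes, none of which passed the test. Its probe A_51_P198434, the mean of 10 spots, read 4.01 and 4.21 in ooplasts and 3.88, 4.64, 4.36 and 4.56 in blastocysts. The groups overlapped, and the stage difference was 0.25 (SE 0.31, adjusted p = 0.492). A_51_P190499, which starts 8 bases further along, read 1.48 and 1.48 in ooplasts and 1.24, 2.63, 1.96 and 2.19 in blastocysts, with a difference of 0.52 (SE 0.42, adjusted p = 0.294). The other two probes are placed further on, between 33609797 and 33610233. A_52_P474242 read -0.011 and -0.34 in ooplasts and -0.43, -0.87, -0.92 and -0.87 in blastocysts (difference -0.60, SE 0.26, adjusted p = 0.0798), and A_52_P50496 read -1.29 and -1.35 in ooplasts and -0.45, 0.0087, -1.29 and -0.0087 in blastocysts (difference 0.88, SE 0.42, adjusted p = 0.0962). A_52_P474242 passed the test in 1 alternative, with the percentile taken over probes above background on all arrays, and A_52_P50496 in 1, without the first climacteric blastocyst array (adjusted p = 0.0201).

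H2-D1, the second classical heavy chain, had 2 probes that did not behave alike. A_51_P496996 (17: 34874545 to 34874777) read 0.70 and 1.49 in ooplasts and 1.95, 2.26, 2.68 and 2.38 in blastocysts, with all blastocyst arrays above both ooplast arrays and a difference of 1.22 (SE 0.27, adjusted p = 0.00654). That call was lost without the young ooplast array (adjusted p = 0.0616). A_52_P313279, whose annotation also lists an accession of H2-Q2, read 1.62 and 2.12 in ooplasts and 1.35, 1.77, 1.51 and 2.02 in blastocysts, with overlapping groups and a difference of -0.21 (SE 0.30, adjusted p = 0.548). B2m, the light chain shared by every class I molecule, had 2 probes above background on all arrays. A_51_P129006, the mean of 10 spots (2: 121844230 to 121844286), read 2.20 and 2.09 in ooplasts and 1.83, 2.84, 2.15 and 2.41 in blastocysts (difference 0.16, SE 0.35, adjusted p = 0.691). A_51_P129012 read 1.98 and 1.88 in ooplasts and 2.34, 3.27, 2.69 and 2.56 in blastocysts, with every blastocyst array above both ooplast arrays and a difference of 0.78 (SE 0.33, adjusted p = 0.0715) that passed the test in 2 of 16 alternatives. The sign of the small differences of B2m A_51_P129006, H2-T23, H2-M10.2, Tapbp A_51_P304500 and H2-D1 A_52_P313279 depended on the scaling of the arrays. The third B2m probe, A_52_P105594 (2: 121840304 to 121840363), lies before the others on the chromosome, matched no current symbol and was above background on no array.

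The stretch before the transcription start is shown for these genes, for H2-Oa, the class II gene that rose, and for the Psmb9-Tap1 pair, of which Psmb9 rose and Tap1 stayed at background. The windows are from RefSeq (GRCm38.p6): 250 bases before the outermost start for H2-K1 (minus strand, chr17:34000348-34000597), H2-D1 (plus strand, chr17:35262844-35263093), B2m (plus strand, chr2:122147437-122147686) and H2-Oa (plus strand, chr17:34092129-34092378). The last window is the 225 bases between the divergent starts of Psmb9 and Tap1, read on the Tap1 strand (chr17:34187331-34187555). Capitals mark matches on either strand to GGGATTCC (the NF-kappaB-type core of the class I enhancer), GAAANNGAA (a form of the core of the interferon-stimulated response element), TTCNNNGAA (gamma-activated site) and CCAAT. Matches of different motifs do not overlap in these windows.
H2-K1: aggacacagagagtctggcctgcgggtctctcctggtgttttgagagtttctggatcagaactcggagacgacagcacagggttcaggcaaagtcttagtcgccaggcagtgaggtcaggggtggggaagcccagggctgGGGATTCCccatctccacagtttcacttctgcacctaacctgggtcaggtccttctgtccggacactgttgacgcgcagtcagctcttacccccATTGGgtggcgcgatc
H2-D1: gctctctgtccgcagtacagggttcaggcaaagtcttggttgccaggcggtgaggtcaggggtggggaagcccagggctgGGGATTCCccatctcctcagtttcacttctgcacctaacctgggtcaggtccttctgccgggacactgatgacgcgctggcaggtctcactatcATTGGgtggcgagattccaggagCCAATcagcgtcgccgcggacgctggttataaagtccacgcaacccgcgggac
B2m: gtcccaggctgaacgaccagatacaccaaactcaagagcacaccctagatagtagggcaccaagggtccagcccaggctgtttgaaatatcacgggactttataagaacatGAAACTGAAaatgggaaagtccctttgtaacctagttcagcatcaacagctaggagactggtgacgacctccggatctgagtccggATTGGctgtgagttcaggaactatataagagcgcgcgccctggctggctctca
H2-Oa: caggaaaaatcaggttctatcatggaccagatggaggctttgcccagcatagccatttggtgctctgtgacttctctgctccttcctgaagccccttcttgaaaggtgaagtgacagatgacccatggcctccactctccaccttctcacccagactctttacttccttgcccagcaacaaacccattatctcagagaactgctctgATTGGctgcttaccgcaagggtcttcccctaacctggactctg
Psmb9-Tap1: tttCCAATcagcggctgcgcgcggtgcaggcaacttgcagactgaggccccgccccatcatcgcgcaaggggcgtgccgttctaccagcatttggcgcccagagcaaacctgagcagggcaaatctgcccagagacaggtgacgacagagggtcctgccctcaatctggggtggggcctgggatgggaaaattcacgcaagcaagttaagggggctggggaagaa

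The search took in 35 RefSeq promoter windows for 31 of the 42 member genes. Windows on chromosome 18, where Cd74 lies, were left out of the member windows. GGGATTCC occurred in 4 of the 35, those of H2-K1 (both annotated starts), H2-D1 and H2-Q7, and in 0.889% of all 32851 promoter windows of that length. H2-K1 and H2-D1 are close copies, and their windows share that match and the bases around it. GAAANNGAA occurred in 3 (B2m, H2-T22 and H2-T23) against 7.13% of all windows, TTCNNNGAA in 3 (H2-DMb2, H2-M3 and H2-M11) against 7.02%, and CCAAT in 30 against 33.8%. The H2-Oa window holds CCAAT alone, as does the Psmb9-Tap1 window. A match is a run of letters and not a measured site. Only these spellings were searched, so a window without a match may still hold another form of an element.

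Among the class Ib genes H2-Bl went from background to bright. H2-Bl is a class I gene of the H2-T region. A_51_P247114 (17: 35688197 to 35688256) read -4.37 and -4.15 in ooplasts and 2.86, 3.21, 2.78 and 3.33 in blastocysts, signals of 11.4 and 13.4 in ooplasts and 5222, 10279, 7299 and 8584 in blastocysts. Neither ooplast array read it well above background and all 4 blastocyst arrays did, at least 39.2-fold higher (adjusted p = 1.05e-05). Such a bound sets the blastocyst mean against the lowest level called above background on each ooplast array, or the probe's own level where higher. A bound holds for the main processing alone. The lowest fitted difference of this probe among the alternatives was 4.75, under its bound of 5.29 in log2. The fits of A_52_P560113, A_52_P350519, H2-Q1 A_52_P231729 and H2-Q10 A_51_P230269 likewise fell short of their bounds in some alternative. A_52_P560113, whose position overlaps it, read -4.42 and -4.26 in ooplasts and 1.96, 2.71, 1.86 and 2.89 in blastocysts, at least 24.3-fold higher (adjusted p = 2.29e-05). The third probe, A_52_P350519 (17: 35691549 to 35691795), was likewise above background in blastocysts alone, at -4.51 and -4.30 in ooplasts and -1.75, -1.78, -1.68 and -1.57 in blastocysts. It was at least 1.47-fold higher (adjusted p = 0.000110), and with normexp background correction it did not pass (adjusted p = 0.232).

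The H2-Q genes, the region of the Qa-2 antigen, were read by 11 probes of 6 names, and probes of a single name disagreed. H2-Q10 is known as a secreted class I chain of liver. Its probe A_51_P496997 (17: 35081318 to 35081377) lists accessions of H2-D1, H2-Q1 and H2-Q6 besides its own and read -1.38 and -0.53 in ooplasts and 2.05, 1.97, 1.56 and 2.54 in blastocysts. All blastocyst arrays lay above both ooplast arrays, a difference of 2.98 (SE 0.38, adjusted p = 0.000496). A_52_P428354 read -1.04 and -1.10 in ooplasts and -0.28, 0.043, -0.77 and 0.17 in blastocysts (difference 0.86, SE 0.34, adjusted p = 0.0578), which passed the test in 4 alternatives. A_51_P230269 (17: 35082473 to 35082532) ran the other way, at -0.96 and -1.77 in ooplasts and -3.42, -5.87, -5.17 and -6.08 in blastocysts, above background on both ooplast arrays and on no blastocyst array. It was at least 5.06-fold lower in blastocysts (adjusted p = 0.00261). A_51_P230267 was above background on the first climacteric blastocyst array alone, at -3.33 and -3.23 in ooplasts and -3.84, -4.57, -3.59 and -3.71 in blastocysts. The probe named H2-Q9 (17: 35081885 to 35081944), above background nowhere, is placed between those 2 H2-Q10 probes.

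H2-Q1 had 3 probes, called in both directions. A_51_P425048, which lists H2-Q2 too and spans 17: 34929602 to 34931174, read 1.92 and 2.20 in ooplasts and 0.82, 1.08, 0.59 and 1.06 in blastocysts, lower on every blastocyst array (difference -1.17, SE 0.29, adjusted p = 0.00957). That call was lost without the climacteric ooplast array (adjusted p = 0.0887). A_52_P231729 (17: 34933059 to 34933118) read -4.32 and -4.15 in ooplasts and -1.17, 0.64, -0.98 and -0.54 in blastocysts, below background in ooplasts and at least 3.32-fold higher in blastocysts (adjusted p = 0.000888). A_52_P582814 is placed 58943 bases further on and read -0.68 and -0.14 in ooplasts and 0.21, 1.01, 1.17 and 0.59 in blastocysts, higher in blastocysts (1.15, SE 0.34, adjusted p = 0.0210), a call lost in 5 of 15 alternatives: without either ooplast array, without the first climacteric blastocyst array, on slide 1 alone and with slide as a block. Neither of these probes matched a current symbol. The name H2-Q1 thus covers probes that need not read the same transcripts, and the share each copy contributes was not tested.

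H2-Q2 A_51_P219789 (17: 34953221 to 34953280) read -1.89 and -0.41 in ooplasts and 0.45, 1.12, 0.67 and 1.43 in blastocysts, higher on all blastocyst arrays (difference 2.07, SE 0.42, adjusted p = 0.00443). The call was lost without the young ooplast array (adjusted p = 0.0540). H2-Q7, one of the Qa-2 genes, had a probe of 10 spots, A_51_P262079 (17: 35050795 to 35051026), at -2.08 and -1.24 in ooplasts and -0.99, 0.27, -0.25 and -0.25 in blastocysts. It was not above background on the young ooplast array, and the blastocyst arrays lay above both ooplast arrays (difference 1.35, SE 0.42, adjusted p = 0.0238). That call was lost in 5 of 15 alternatives, among them the leaving out of either ooplast array (adjusted p = 0.189 without the young and adjusted p = 0.0515 without the climacteric one). H2-Q8 A_52_P152133 read 0.76 and 1.62 in ooplasts and 0.63, 1.00, -0.32 and 1.05 in blastocysts, with overlapping groups (difference -0.60, SE 0.49, adjusted p = 0.305).

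The H2-T genes gave no stage call. H2-T23 encodes Qa-1, the ligand of the CD94-NKG2 receptors of natural killer cells. Its probe A_51_P237754 read -1.62 and -0.11 in ooplasts and -1.46, 0.025, -0.76 and -0.56 in blastocysts, and the difference of 0.18 (SE 0.52, adjusted p = 0.769) was far inside the spread within each stage. H2-T10, whose probe A_51_P432538 lists H2-T22 too, read 1.21 and -0.63 in ooplasts and -1.12, -0.021, -0.16 and -0.29 in blastocysts. The young ooplast array was highest, and the difference of -0.69 (SE 0.56, adjusted p = 0.304) passed the test without the climacteric ooplast array (adjusted p = 0.0361). H2-T24 was dim, at -2.66 and -2.60 in ooplasts and -3.88, -3.37, -3.52 and -3.28 in blastocysts for A_52_P581082, above background on 3 blastocyst arrays, and -3.27 and -2.26 in ooplasts and -4.00, -4.43, -3.63 and -4.10 in blastocysts for A_52_P189812, above it on the first climacteric blastocyst array alone. Both H2-T24 probes read higher in ooplasts, where the lowest level called above background was also higher.

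Of the H2-M genes, whose M10 members are known from the vomeronasal organ, 3 had a probe above background. H2-M11 A_51_P245025 read -1.14 and -0.73 in ooplasts and -2.72, -1.19, -2.57 and -2.44 in blastocysts, and its difference of -1.29 (SE 0.48, adjusted p = 0.0476) was lost in 8 of 16 alternatives. These were quantile normalization, the authors' deposited values, no filter on dim probes, and leaving out any array but the second young blastocyst one. H2-M10.2 A_52_P291723 was called above background on the blastocyst arrays alone, at -3.13 and -2.51 in ooplasts and -3.05, -2.14, -1.81 and -3.24 in blastocysts (difference 0.26, SE 0.49, adjusted p = 0.647). Its ooplast levels lay inside the blastocyst range, and the lowest level called was higher on the ooplast arrays. H2-M3, which presents formylated peptides, was above background on the young ooplast array alone, where A_51_P469968 read -2.02; on the other 5 arrays it read -3.66 to -6.23.

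**Figure D1:**
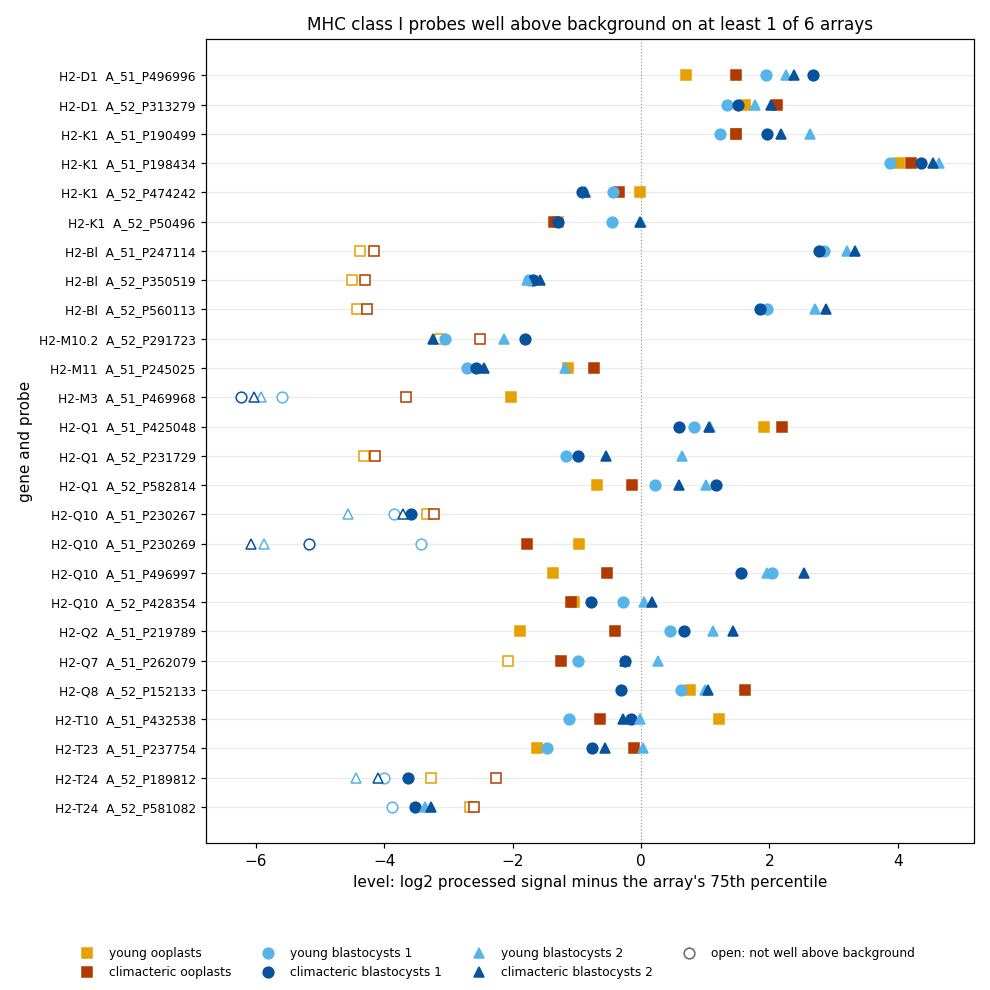
Level of each class I probe well above background on at least 1 of the 6 arrays (horizontal axis, log2 processed signal minus the array's 75th percentile), 1 row per probe, with squares for ooplasts, circles and triangles for blastocyst replicates 1 and 2, and open markers where a probe was not well above background. The H2-Bl probes have open markers below -4 in ooplasts and filled markers in blastocysts. The H2-K1 probes overlapped between stages, apart from A_52_P474242, which was lower on every blastocyst array.

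No probe of tapasin or the Tap transporter was called higher in blastocysts. Tapbp, tapasin, which bridges class I chains to the transporter, had 2 probes above background everywhere. A_51_P304500 read 2.63 and 3.25 in ooplasts and 2.58, 2.78, 2.70 and 2.81 in blastocysts (difference -0.22, SE 0.27, adjusted p = 0.480). A_52_P684830 (17: 33536605 to 33536664) read 0.38 and 1.07 in ooplasts and -0.41, -0.19, -0.024 and 0.037 in blastocysts, with the blastocyst arrays below both ooplast arrays, and fell by 0.87 on the log2 scale (SE 0.26, adjusted p = 0.0208). That call was lost in 4 of 15 alternatives: on slide 1 alone (adjusted p = 0.0881), without the climacteric ooplast array (adjusted p = 0.155) and without either climacteric blastocyst array. Tap1 was above background on no array, at -3.92 and -2.29 in ooplasts and -3.33, -3.94, -3.72 and -3.48 in blastocysts. Tap2, the other chain of the peptide transporter, was read by 1 probe, A_52_P86176 (17: 33825052 to 33825639), at 8.83 and 4.33 in ooplasts and 0.25, 3.44, 0.12 and 0.42 in blastocysts. Signals were 107201 and 4782 in ooplasts and 857, 12042, 1153 and 1138 in blastocysts. The young ooplast array stood far above the rest, the climacteric ooplast array came second, followed by the second young blastocyst array. The fitted stage difference was -5.53 (SE 1.00, adjusted p = 0.00265), and the call held in all 15 alternatives.

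Of 20 other gene names of class I peptide supply and loading, with Arts1 and Erap1 counted apart, 17 could be tested. Of these 10 were higher in blastocysts and 3 lower, with a median difference of 1.78. Over all probes tested 35.6% were higher and 38.2% lower, with a median of -0.22, and the lists that follow stand beside the same values. Those with the largest difference were Psmb9, an inducible proteasome subunit (at least 54.2-fold higher, adjusted p = 1.22e-05), the chaperone Hspa5 (4.79, SE 0.38, adjusted p = 6.40e-05), and the proteasome activator subunits Psme2 (4.17, SE 0.28, adjusted p = 3.50e-05) and Psme1 (3.78, SE 0.29, adjusted p = 5.43e-05). Psmb9 read -2.53 and -2.05 in ooplasts and 3.29, 3.57, 3.62 and 3.87 in blastocysts, not well above background in ooplasts. Tap1, whose start lies across the 225 bases printed above, gave no signal above background on the same arrays. Psmb8, the other inducible subunit of the MHC region, was above background on no array.

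Class II genes were few above background, and the gene that rose most does not present peptide at the surface. H2-Oa is the alpha chain of H2-O, which restrains peptide loading by H2-DM in endosomes. A_51_P449325 (17: 33705542 to 33705601) read -2.77 and -1.78 in ooplasts and 2.43, 2.59, 3.76 and 2.86 in blastocysts, signals of 34.5 and 69.3 in ooplasts and 3878, 6712, 14431 and 6205 in blastocysts. It was above background on all arrays but the young ooplast one, and every blastocyst array lay above both ooplast arrays. The fitted difference was 5.19 (SE 0.33, adjusted p = 2.90e-05), with the young ooplast reading at background taken as it is. A_51_P449329, which targets the stretch just before it, read -2.56 and -1.80 in ooplasts and 0.23, 0.81, 2.45 and 0.95 in blastocysts, a difference of 3.29 (SE 0.47, adjusted p = 0.000866) fitted in the same way. H2-Ob, the beta chain that pairs with H2-Oa, was above background on no array, at -4.19 and -4.01 in ooplasts and -5.26, -5.56, -4.84 and -5.79 in blastocysts.

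The peptide-presenting chains were called lower in blastocysts on 2 probes and were at background or untested on the rest. H2-Aa, the alpha chain of H2-A, was read on 2 probes. A_51_P119760 (17: 33892022 to 33892081) read -0.84 and -1.50 in ooplasts and -5.57, -5.89, -5.69 and -3.00 in blastocysts, above background on both ooplast arrays and, among blastocysts, on the second climacteric array alone. The fitted difference, which takes the readings at background as they are, was -3.87 (SE 0.81, adjusted p = 0.00502). It was lost without the young ooplast array (adjusted p = 0.0645). A_52_P343306 was above background on the first climacteric blastocyst array alone, at -4.31 and -4.09 in ooplasts and -4.50, -4.34, -3.75 and -4.57 in blastocysts. H2-Eb1, a beta chain of H2-E, read -1.96 and -0.97 in ooplasts and -2.40, -3.14, -2.85 and -3.39 in blastocysts. It was above background on the climacteric ooplast array, both young blastocyst arrays and the first climacteric one, and so was not tested for stage.

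H2-Ab1, the beta chain of H2-A, had 4 probes with different patterns. A_51_P215237, the mean of 10 spots (17: 33875638 to 33875697), read 9.08 and 7.03 in ooplasts and 3.72, 5.73, 1.42 and 0.39 in blastocysts, signals of 127160 and 31172 in ooplasts and 9511, 58881, 2851 and 1113 in blastocysts. Both ooplast arrays lay above every blastocyst array, and the difference was -5.24 (SE 0.70, adjusted p = 0.000634). A_52_P683598 (17: 33877309 to 33877368) was not above background in ooplasts, at -4.28 and -2.83 in ooplasts and -3.59, -3.48, -3.73 and -3.53 in blastocysts, and was above it on all blastocyst arrays but the first young one. A_52_P570717 and A_51_P215242 were above background on no array. The array order of A_51_P215237 was that of Tap2: young ooplasts, climacteric ooplasts, then the second young blastocyst array, over a range of at least 6 log2 units. Of all 41174 probes 342 (0.831%, 338 gene names) had that order and range, a rule that fixes lower values in blastocysts and was chosen after the values were seen. Among the marker lists it took in 3 of the 14 cumulus and granulosa genes: Inha (8.44 and 2.80 in ooplasts and -1.53, 1.44, -2.55 and -2.09 in blastocysts), Nr5a1 (6.56 and 1.40 in ooplasts and -4.30, -2.35, -2.42 and -3.56 in blastocysts) and Inhba (-0.15 and -0.78 in ooplasts and -5.62, -5.35, -6.27 and -6.04 in blastocysts). Inhba was at background on all blastocyst arrays, so its order among them is between background readings and its range rests on them. The other 11 did not have that order and range, among them Cyp19a1, the aromatase of granulosa cells (6.30 and 6.22 in ooplasts and -0.95, -1.55, -1.55 and -0.89 in blastocysts). What moves these probes together was not tested. Without them 19 member probes were called, 12 higher and 7 lower.

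**Figure D2:**
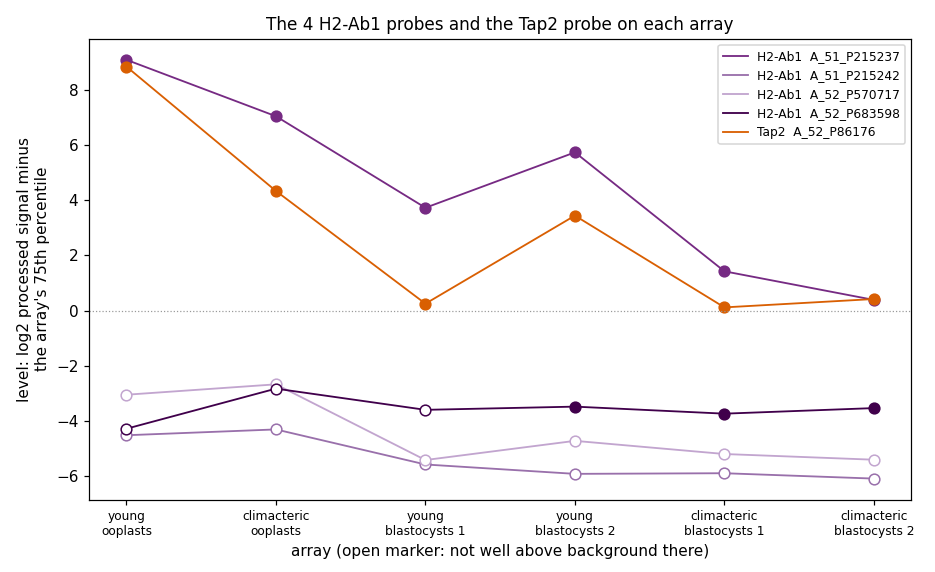
Levels (vertical axis, log2 processed signal minus the array's 75th percentile) of the 4 H2-Ab1 probes and the Tap2 probe on each of the 6 arrays (horizontal axis), with open markers where a probe was not well above background. A_51_P215237 and Tap2 were highest on the young ooplast array, then on the climacteric one, and were next highest on the second young blastocyst array, while the other 3 H2-Ab1 probes stayed below -2.

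H2-DM edits the peptides that class II molecules carry. H2-DMa A_51_P473734 (17: 33747809 to 33748372) read -1.85 and -1.40 in ooplasts and -2.49, -3.12, -2.79 and -2.94 in blastocysts, lower on all blastocyst arrays (difference -1.21, SE 0.31, adjusted p = 0.0113). That call was lost on slide 1 alone and without the climacteric ooplast array (adjusted p = 0.0904 and adjusted p = 0.108). H2-DMb1 A_51_P278868 varied between blastocyst arrays by more than any other tested class II probe but the 10-spot H2-Ab1 one, at 1.34 and 1.56 in ooplasts and -4.24, -0.27, -1.42 and 0.83 in blastocysts. Its difference of -2.73 (SE 1.19, adjusted p = 0.0758) passed the test with slide as a block (adjusted p = 0.00263), on slide 1 alone and without either second blastocyst array. The invariant chain Cd74 was above background on all arrays, at -0.14 and -0.64 in ooplasts and -1.51, -0.92, -1.66 and -1.30 in blastocysts, and fell by 0.96 on the log2 scale (SE 0.30, adjusted p = 0.0247). That call was lost without either ooplast array and without either first blastocyst array (adjusted p = 0.0529 to adjusted p = 0.142). Ciita was dim, at -3.64 and -2.78 in ooplasts and -3.43, -3.76, -2.56 and -3.06 in blastocysts, above background on both climacteric blastocyst arrays alone.

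Other genes of class II endosomal processing were called in both directions: of 12 names 9 were tested, 5 higher and 2 lower, with a median of 1.17. The lysosomal proteases Ctsl (5.27, SE 0.45, adjusted p = 8.93e-05) and Ctsh (-3.82, SE 0.32, adjusted p = 8.28e-05) went in opposite directions. Ifi30, the lysosomal thiol reductase, rose (3.33, SE 0.29, adjusted p = 9.96e-05), as did the lysosomal membrane protein Lamp1 (2.04, SE 0.28, adjusted p = 0.000702). Of 25 regulators of MHC transcription and interferon signalling 21 were tested, 9 higher and 7 lower, with a median of 0.53, shares near those over all probes. Creb1, a factor of the MHC X box, was at least 13.1-fold higher (adjusted p = 1.71e-05). Jak2 (-4.79, SE 0.41, adjusted p = 9.21e-05), Nfkb1 (-4.13, SE 0.57, adjusted p = 0.000747) and Stat2 (-3.71, SE 1.14, adjusted p = 0.0237) were lower. Stat2 was at background on both second blastocyst arrays, and its fitted size rests on those readings. Of 10 class I-like genes outside the MHC 6 were tested, with Procr higher (1.89, SE 0.41, adjusted p = 0.00621) and Ulbp1 (-4.87, SE 1.19, adjusted p = 0.00987), Cd1d1 (-3.17, SE 0.42, adjusted p = 0.000611) and Raet1a (-1.89, SE 0.34, adjusted p = 0.00256) lower. Ulbp1, a ligand of the NKG2D receptor, read 8.04 and 2.67 in ooplasts and -0.48, 3.35, -0.82 and -0.11 in blastocysts, highest on the young ooplast array and next on the second young blastocyst array.

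H2-Ke2 and H2-Ke6 lie among the MHC genes without their function. H2-Ke2 (17: 33550087 to 33550230) is now named Pfdn6, a subunit of the prefoldin chaperone. It read -0.80 and -0.66 in ooplasts and 3.78, 3.47, 3.83 and 3.60 in blastocysts, signals of 135 and 151 in ooplasts and 9901, 12326, 15113 and 10363 in blastocysts, well apart between stages, a difference of 4.40 (SE 0.26, adjusted p = 2.30e-05). H2-Ke6, the steroid dehydrogenase Hsd17b8, read -1.59 and -1.70 in ooplasts and -1.96, -2.77, -2.96 and -1.71 in blastocysts. The highest blastocyst array lay just under the lower ooplast array, with a difference of -0.71 (SE 0.44, adjusted p = 0.184).

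**Figure D3:**
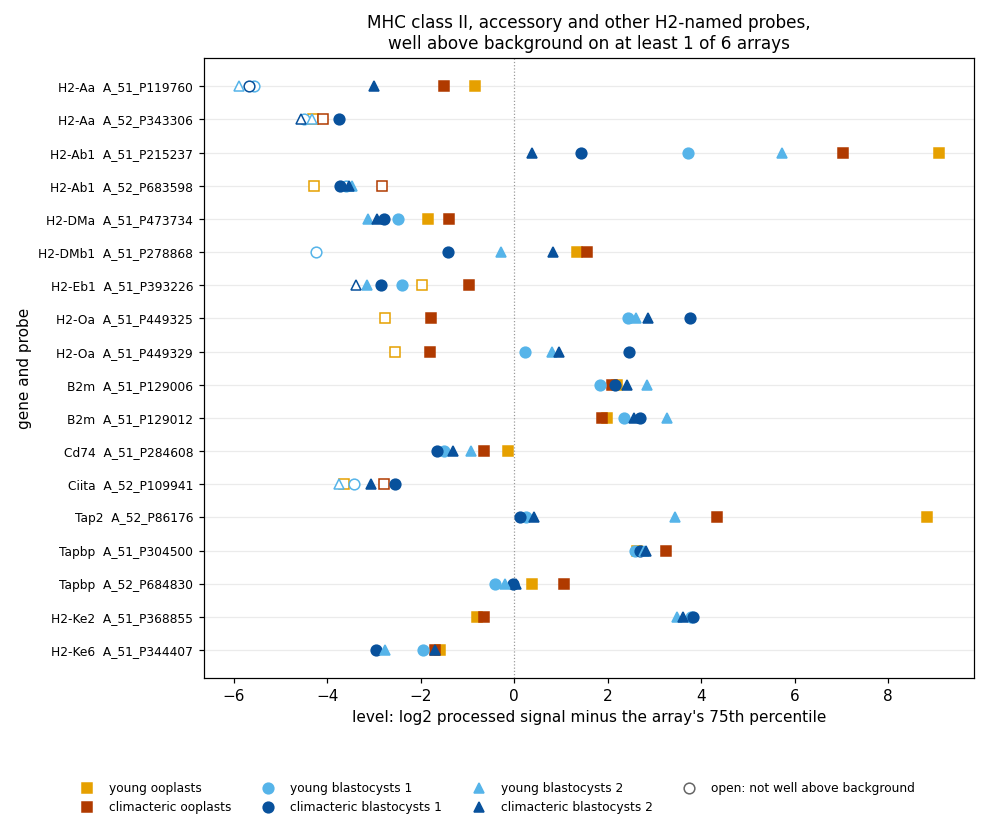
Levels of the class II, accessory and other H2-named probes well above background on at least 1 array (horizontal axis, log2 processed signal minus the array's 75th percentile), drawn as for class I. H2-Oa and H2-Ke2 were higher on all 4 blastocyst arrays, and the 10-spot H2-Ab1 probe and Tap2 were highest on the 2 ooplast arrays.

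Among the 8 genes with 2 or more tested probes, every probe was called higher for 2 (H2-Bl and H2-Oa) and no probe was called for 2 (H2-K1 and B2m). Some probes were called and others not for 2 (H2-D1 and Tapbp). Probes were called in opposite directions for 2 (H2-Q1 and H2-Q10). In 5 of the 66 probes the annotation lists an accession of another gene: H2-D1 A_52_P313279, H2-Q1 A_51_P425048, H2-Q10 A_51_P496997, H2-T10 A_51_P432538 and H2-DMb2 A_52_P146877. Hybridization to close copies was not tested, so for class Ib a value belongs to the probe rather than to a gene. Genomic sequence and annotation of build mm8 were not used here, so exon and intron are not given.

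**Figure D4:**
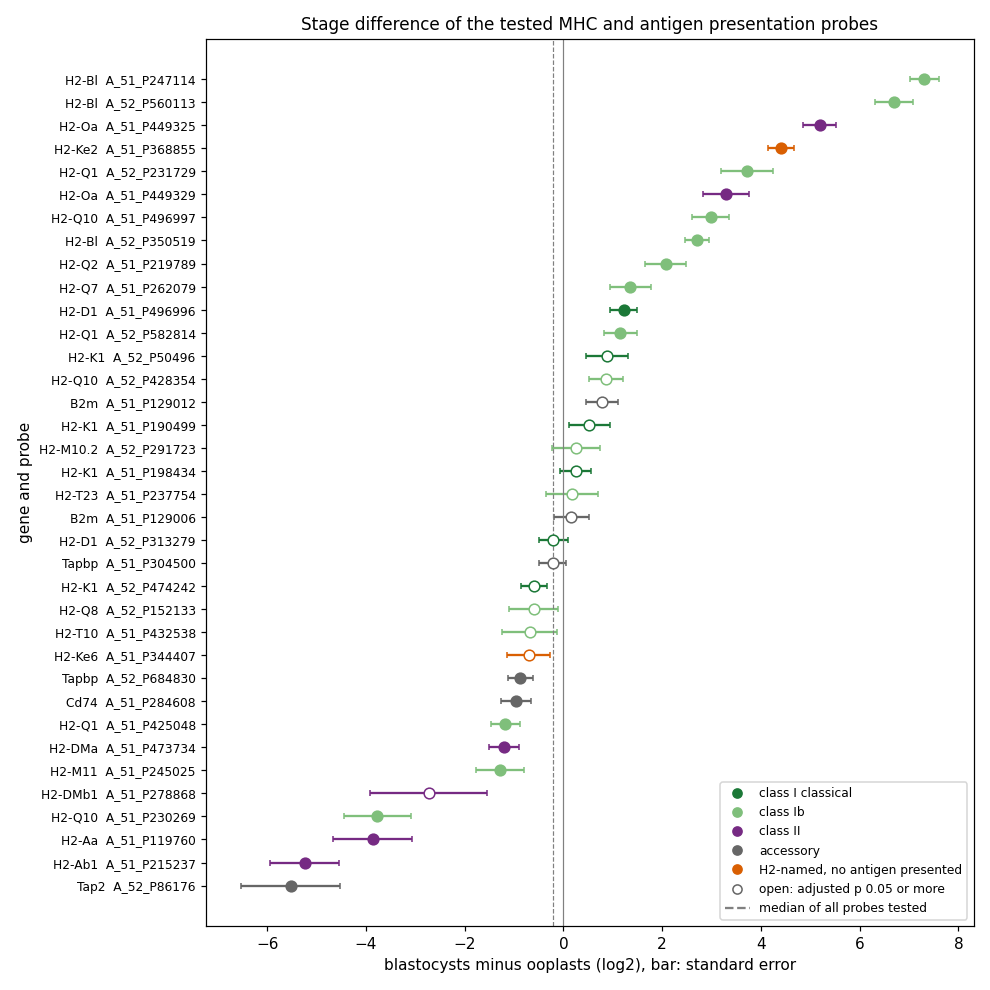
Fitted difference between blastocysts and ooplasts (horizontal axis, log2, with its standard error as a bar) for the 36 tested member probes (vertical axis), filled where the adjusted p was under 0.05 and coloured by class; the dashed line is the median of all probes tested, -0.22. For the H2-Bl, H2-Q1 A_52_P231729, H2-M10.2 and H2-Q10 A_51_P230269 probes, at background in 1 stage, the plotted value is no bound. H2-Bl A_51_P247114 and A_52_P560113 and H2-Oa A_51_P449325 lie farthest to the right, and Tap2 and H2-Ab1 farthest to the left.

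Climacteric and young ooplasts could be compared on 1 array each, so no test exists and counts are of probes at least 2-fold apart. Of the 28 member probes above background on both arrays 2 were at least 2-fold higher in climacteric ooplasts, where 7.38% of all 15518 such probes were, and 3 at least 2-fold lower, where 9.92% of all were. The member shares were 7.14% and 10.7%, near the background. H2-T23 was higher by 1.51 and H2-Q2 by 1.48 on the log2 scale. H2-T10 differed by -1.84, the 10-spot H2-Ab1 probe by -2.04 and Tap2 by -4.50, each lower in climacteric ooplasts. The median over the 28 was 0.17 and over all probes 0.14. The 16 class I probes had a median of 0.35, 10 of them positive, and the 4 class II probes one of -0.22. H2-K1 A_51_P198434 differed by 0.20, B2m A_51_P129006 by -0.11 and H2-D1 A_51_P496996 by 0.79. With normexp background correction H2-T23 and H2-Q2 were under 2-fold, which left 0 probes higher and 3 lower. With quantile normalization there were 3 higher and 3 lower. Among all probes at least 2-fold apart 42.7% were higher in climacteric ooplasts, and under other scalings 33.2% to 58.4%.

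Class II genes are normally made by leucocytes, and leucocyte genes differed between these arrays. Of 18 leucocyte genes the young ooplast array had 7 above background and the climacteric one 10, against 11 on each young blastocyst array, and 14 and 13 on the climacteric ones. The share over all probes rose too. It was 41.9% and 41.7% on the ooplast arrays, 49.5% and 52.3% on the young blastocyst arrays and 56.9% and 54.4% on the climacteric ones. The lowest level called above background was also higher on the ooplast arrays. The summed level of the leucocyte genes, in multiples of the 75th percentile, was 80.9 and 44.8 on the ooplast arrays and 25.9, 24.2, 64.8 and 24.7 on the blastocyst arrays. Lyz2, the macrophage lysozyme, read -4.48 and 3.94 in ooplasts and -5.58, -3.77, 5.07 and -6.02 in blastocysts, bright on the climacteric ooplast array and the first climacteric blastocyst array alone. Ctss, the protease that trims the invariant chain in antigen-presenting cells, read -4.06 and 2.51 in ooplasts and -5.46, -5.77, 1.73 and -5.87 in blastocysts, above background on the same 2 arrays. The pan-leucocyte gene Ptprc read -4.43 and -4.26 in ooplasts and -5.51, -5.76, -6.14 and -3.53 in blastocysts, above background on the second climacteric blastocyst array alone, as H2-Aa A_51_P119760 was among blastocysts. Itgam and Cd53 were above background on no array. The part of such cells in any class II value was not tested.

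In blastocysts no member probe passed the test of climacteric against young, 2 arrays each (limma, 0 of 38 higher and 0 lower). Among all 21649 probes tested 0% were called in either direction. At an unadjusted p under 0.05 there were 1213 probes (5.6%), among them 1 member, the 10-spot H2-Ab1 probe. Its levels of 3.72 and 5.73 in young and 1.42 and 0.39 in climacteric blastocysts did not overlap, a difference of -3.82 (SE 0.76, adjusted p = 0.505). The other H2-Ab1 probe tested, A_52_P683598, differed by -0.096 (SE 0.29, adjusted p = 1.00). Of the 38 differences 31 were within 0.5 of 0 on the log2 scale, and the median was 0.045. The median standard error was 0.42, so that a small change was not detectable with these arrays. Class I had a median of 0.064 over 22 probes, 15 of them positive, and class II one of -0.057 over 7.

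Age differences in blastocysts were smallest, among the members that follow, for H2-Bl, H2-Q10 and B2m. H2-Bl A_51_P247114 differed by 0.023 (SE 0.35, adjusted p = 1.00), H2-Ke2 by 0.091 (SE 0.31, adjusted p = 1.00) and H2-Q10 A_51_P496997 by 0.037 (SE 0.42, adjusted p = 1.00). The H2-Oa probes differed by 0.80 (SE 0.40, adjusted p = 1.00) and 1.18 (SE 0.57, adjusted p = 1.00), with the first climacteric array highest for both. H2-K1 A_51_P198434 differed by 0.20 (SE 0.37, adjusted p = 1.00), B2m A_51_P129006 by -0.058 (SE 0.43, adjusted p = 1.00), H2-D1 A_51_P496996 by 0.42 (SE 0.31, adjusted p = 1.00) and Cd74 by -0.27 (SE 0.36, adjusted p = 1.00). Ciita, read above background on both climacteric arrays and neither young one, differed by 0.78 (SE 0.34, adjusted p = 0.951). Tap2 differed by -1.58 (SE 1.03, adjusted p = 1.00) with 1 of the young arrays high, and H2-DMb1 by 1.96 (SE 1.44, adjusted p = 1.00) with 1 of the young arrays at background. These p-values do not show that the ages were alike.

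The age difference in blastocysts minus that in ooplasts, tested with the spread of the blastocyst replicates alone, was called for 0 of 41 member probes (limma). Among all 24180 probes tested 0.405% were called positive and 0.0207% negative. At an unadjusted p under 0.05 there were 2164 probes and 2 members, H2-T10 A_51_P432538 (2.19, SE 0.79, adjusted p = 0.509) and H2-Ab1 A_52_P683598 (-1.55, SE 0.51, adjusted p = 0.459). The latter was at background on both ooplast arrays, so its ooplast difference is between background readings. For H2-T10 the climacteric array was -1.84 against the young one in ooplasts, while in blastocysts the difference was 0.35 (SE 0.45, adjusted p = 1.00). For the 10-spot H2-Ab1 probe and Tap2, with lower climacteric values at both stages, the differences did not pass (-1.78, SE 1.34, adjusted p = 0.836 for H2-Ab1 and 2.92, SE 1.83, adjusted p = 0.782 for Tap2).

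**Figure D5:**
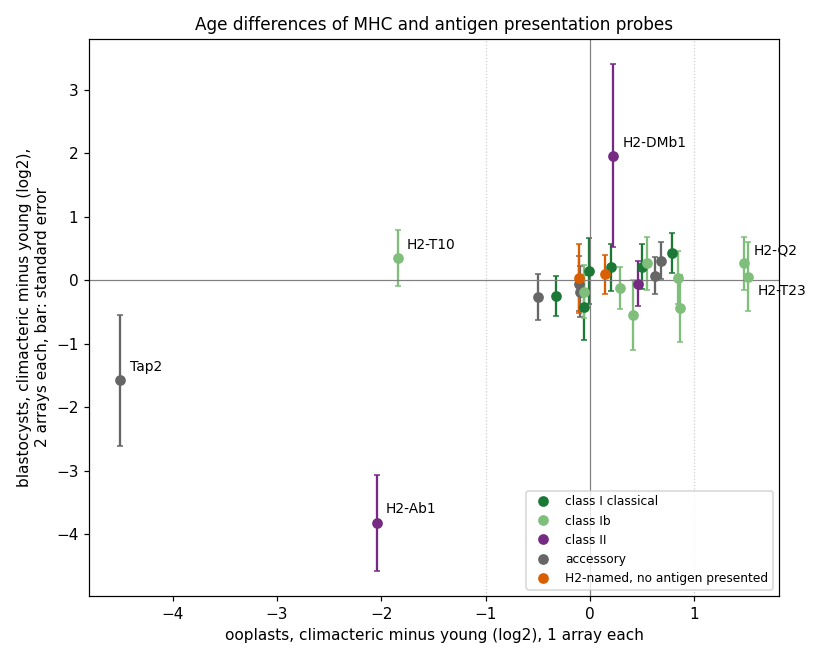
Climacteric minus young difference in ooplasts (horizontal axis, log2, 1 array each) against that in blastocysts (vertical axis, log2, 2 arrays each, bar for the standard error) for the 26 member probes above background in both ooplasts and tested in blastocysts, coloured by class. Most points lie within 1 unit of 0 on both axes, and H2-Ab1 and Tap2 lie low on both.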

How the data were processed

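Total RNA of 6 samples was hybridised in 1 colour (Cy3) to a whole-genome mouse array. Per the file headers, the deposited intensity values are processed signals of Agilent Feature Extraction 9.5, background-subtracted by the scanner software; the authors' deposited log2 value table matched a quantile normalization of them (largest gap 5e-07). Here spots of a probe were averaged, and log2 signals were set against each array's 75th percentile. Differences were tested per probe with limma 3.58.1 in R 4.3.3, Benjamini-Hochberg adjusted over all probes tested, threshold 0.05, among probes that all arrays of 1 or more of the compared groups read well above background. The stage test used all 6 arrays with age as a covariate, and the age tests used the spread of the 4 blastocyst arrays. The number of arrays limits the precision. The code was tested on simulated data.

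The members, gene lists and tests were chosen with earlier results of these data known. Every member probe above background on at least 1 array is named; of each pathway list up to 4 genes past the stage threshold with the largest difference are named, read on the brightest probe of the gene; marker lists are given by counts and summed level with their defining genes. Genes named for their array order were chosen after their values were seen. Replicate numbers are from the labels and coincide with the slides: the ooplasts shared slide 1 with replicate 1 of either blastocyst group, and slide 2 held replicate 2. Alternatives covered normalization, background correction, the filter on dim probes, 1 probe per gene name, slide as a block, slide 1 alone and each array left out. Gene names are those of the array design, with RefSeq symbols (GRCm38.p6) found for 57 of 66 probes. Probe positions are of build mm8, as deposited, and promoter sequences are of GRCm38.p6. Copies of class I genes that share probe sequence were not separated.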

Additional observations from a re-analysis of the deposited data

Results flagged for a closer look

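In the 4 blastocyst arrays, 42 member probes were checked for an array that stood apart from the other 3, by a gap past Dixon's 95% critical value, which chance gives for about 1 in 20 such probes. There were 3 such probes. Tap2 A_52_P86176 had its highest level, 3.44, on the second young blastocyst array (gap 0.909 of the range). H2-K1 A_52_P474242 had its highest, -0.43, on the first young array (0.884). H2-Aa A_51_P119760 had its highest, -3.00, on the second climacteric array (0.890), where it was the only blastocyst array well above background for that probe.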

How the results depend on the processing

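The count of 21 member probes called for stage (12 higher and 9 lower) stayed between 18 and 22 under other normalizations, with normexp background correction and on slide 1 alone. It was 14 with 1 probe per gene name, 43 (12 higher and 31 lower) when dim probes were kept and 13 (6 higher and 7 lower) over probes above background on every array. Leaving out each array in turn gave 15 to 22. The class I median difference of 0.69 was -0.62 without the filter and 0.50 to 0.91 with each array left out. The class II median of -1.97 was -1.47 without the filter, -3.23 over probes above background on every array and -2.28 to -1.27 with each array left out. The count of 5 member probes at least 2-fold apart in ooplasts was 3 with normexp, 10 with no filter and 3 without the probes that share the array order of the H2-Ab1 and Tap2 probes, an alternative chosen after seeing the data. No member was called for age, or for age by stage, in any alternative run, each array left out included (0 to 0).

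Of the 21 called probes 10 kept their call in every alternative run for them, 11 lost it in at least 1, and none changed sign; of the 15 others 7 passed in at least 1. The share of calls that were higher was 57.1%, and between 52.4% and 61.9% under the other scalings. Over all probes the age by stage test called 103, but 0 with quantile normalization, the authors' deposited values, slide as a block or any blastocyst array left out, and 278 with normexp; the cause was not tested. With the replicate block, which is also the slide block, 20 member probes were called for stage, 10 higher and 10 lower, and 0 for age and for age by stage; the class I median was 0.42 and the class II median -2.65. The deviations of replicate 1 from its group mean in young and in climacteric blastocysts correlated at r = 0.14 over 21649 probes. By the labels and file headers same-numbered blastocyst arrays share a number and a slide, and nothing else ties them. Dim probes of class II and of the H2-M genes are limited by signal over background.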
